A study of Homo sapiens with 18 samples.

Results

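In all, 9 genes of vascular growth factor signalling were followed through every RNA-seq library of a human podocyte line: the ligands VEGFA, VEGFB, VEGFC and PGF, the receptors FLT1 and KDR, the co-receptors NRP1 and NRP2, and the angiopoietin ANGPT1. They were chosen by gene symbol as members of these families, and all 9 were found among the 58735 genes of the count table. Of these 9, 8 passed the filter on low counts and were tested, and FLT1 did not. The cells were PODO/TERT256, an immortalised podocyte line, grown on 3D hemispheres with a smooth or a fractal surface. On each surface there were untreated cells (control), cells exposed to the cytokines TNF-α and IL-6, and cells exposed to macrophages made from THP-1, a monocytic leukaemia line. Each of the 6 groups held 3 libraries, 18 in all, and every group was of this single cell line. The labels give no dose or exposure time, and they name no step that parts the macrophages from the podocytes before lysis. Nothing in them tells if a group's 3 libraries are from different cultures, and the p-values therefore measure only how far libraries differ, which can be a technical spread.

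Totals per library lay between 11488204 and 21264180 counts. Smooth cytokines replicate 2, with 8.09% of its counts on mitochondrial genes, and fractal THP-1 replicate 3, with 0.847%, stood apart from the other 16 libraries, which held 3.86 to 4.63%. Of the podocyte markers LMX1B had no count in any group, and NPHS1 and WT1 were near detection, so the labelled cell type rests on other markers such as SYNPO. The 24 monocyte and macrophage markers summed to between 2.53 and 6.46 counts per 1000000 counts (CPM, scaled by TMM) in control and cytokine libraries. With THP-1 the sum ran from 47.2 to 51.2 CPM on smooth and from 23.2 to 27.2 CPM on fractal topography. There 22 of the 24 markers had a count on smooth topography (MRC1 and C1QB were at 0) and 20 on fractal (MRC1, C1QA, C1QB and C1QC were at 0). The 17 endothelial markers summed to between 150 and 223 CPM in all libraries, and EMCN, which marks glomerular endothelium, had no count in any group. In the smooth controls SOX17 (50.9 CPM), EHD3 (47.2) and ENG (42.4) held most of the endothelial sum, and CDH5 was at 8.55 CPM. There PECAM1 (0.325), TEK (0.354) and ERG (0.208) were near detection.

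VEGFA is the main signal by which podocytes maintain the fenestrated endothelium on the other side of the glomerular basement membrane. It binds the receptor tyrosine kinases FLT1 and KDR, of which KDR carries most of the growth and permeability signal while FLT1 binds tightly and can act as a sink. VEGFB and PGF bind FLT1 but not KDR, VEGFC binds FLT4 and, once cleaved, KDR, and the neuropilins NRP1 and NRP2 present VEGF ligands to these receptors and also bind semaphorins. ANGPT1, made by podocytes among other perivascular cells, activates the endothelial receptor TEK (TIE2) and stabilises capillaries.

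In GRCh38 with GENCODE 29 all 9 are protein-coding genes. VEGFA (ENSG00000112715) lies on chromosome 6 at 43770184 to 43786487 on the plus strand, VEGFB on chromosome 11 at 64234538 to 64238793 on the plus strand, and PGF on chromosome 14 at 74941834 to 74955784 on the minus strand. VEGFC (176683538 to 176792727) and KDR (55078259 to 55125595) both lie on the minus strand of chromosome 4. FLT1 lies on chromosome 13 at 28300344 to 28495145, NRP1 on chromosome 10 at 33177492 to 33336262 and NRP2 on chromosome 2 at 205681990 to 205798133. The libraries kept no strand, and antisense genes overlap 4.87% of the exon bases of NRP1, 1.3% of those of VEGFA and 1.06% of those of NRP2, so reads in those stretches cannot be assigned to a strand. The other 6 have no such overlap.

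Of the 5 members that answered the macrophages differently on the 2 surfaces, the promoters of 3 are printed. With THP-1, VEGFB was higher on fractal than on smooth topography, and VEGFC and KDR were lower. The promoter of VEGFA was not used here, and for NRP2 no bases were left to show. Each printed stretch is up to 250 bases before the gene's RefSeq start in GRCh38.p14, 5′ to 3′ on the gene's own strand. Bases that GENCODE 29 counts to the gene are left out of the printed stretches. They lie at chr11:64234334-64234537 (plus strand), chr4:176792923-176793172 (minus strand) and chr4:55125596-55125845 (minus strand). Capitals mark the GC box GGGCGG, the core that SP1-type factors recognise, read on either strand, with overlapping matches counted.
VEGFB: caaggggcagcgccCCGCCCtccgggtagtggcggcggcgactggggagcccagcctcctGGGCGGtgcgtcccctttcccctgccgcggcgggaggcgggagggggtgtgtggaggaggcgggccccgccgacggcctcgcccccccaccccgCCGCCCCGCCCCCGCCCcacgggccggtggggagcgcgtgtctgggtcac
VEGFC: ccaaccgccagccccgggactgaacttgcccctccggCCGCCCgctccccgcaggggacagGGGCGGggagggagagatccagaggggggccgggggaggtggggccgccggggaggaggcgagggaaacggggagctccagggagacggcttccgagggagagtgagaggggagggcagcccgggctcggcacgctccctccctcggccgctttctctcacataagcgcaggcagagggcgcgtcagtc
KDR: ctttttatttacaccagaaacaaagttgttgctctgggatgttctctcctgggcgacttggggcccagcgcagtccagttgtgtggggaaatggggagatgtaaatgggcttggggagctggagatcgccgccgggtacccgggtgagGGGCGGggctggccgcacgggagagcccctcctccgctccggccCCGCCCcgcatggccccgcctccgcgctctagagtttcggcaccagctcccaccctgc
The stretches hold 5 matches in the 204 bases of VEGFB, and 2 each in the 250 bases of VEGFC and KDR. Among 35116 RefSeq promoters 35.8% hold the GC box in a window of 204 bases and 42.6% in one of 250 bases. Neither ACGTG, the core of the hypoxia response element, nor TGANTCA, the AP-1 site, was found on either strand in these 3 stretches. Those letters occur in 18.5% and 6.57% of all promoters over 250 bases. The GC box was also found in the 250 bases before the start of PGF, FLT1 and NRP2.

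Levels spanned a wide range, with NRP1 and VEGFA at the top, ANGPT1 and PGF low and the kinase receptors lowest. Per kilobase of the longest protein-coding transcript, the smooth controls held 103 ± 1.9 CPM of NRP1 and 92.9 ± 1.7 CPM of VEGFA (mean ± SD, n = 3 here and below). NRP2 followed with 43.4 ± 0.84, VEGFC with 36.9 ± 0.33 and VEGFB with 16.2 ± 2.8 CPM per kilobase. ANGPT1 was at 3.48 ± 0.33, PGF at 2.47 ± 0.21 and KDR at 0.241 ± 0.051 CPM per kilobase. VEGFA would stand at 22.8 CPM per kilobase if its exons of all transcripts were joined (14431 bases rather than 3535), so its place beside NRP1 depends on the transcript chosen. In the fractal THP-1 libraries VEGFA stood at 251 ± 8.9 CPM per kilobase and NRP1 at 119 ± 5.1. The plot of levels by library shows every value.

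**Figure D1:**
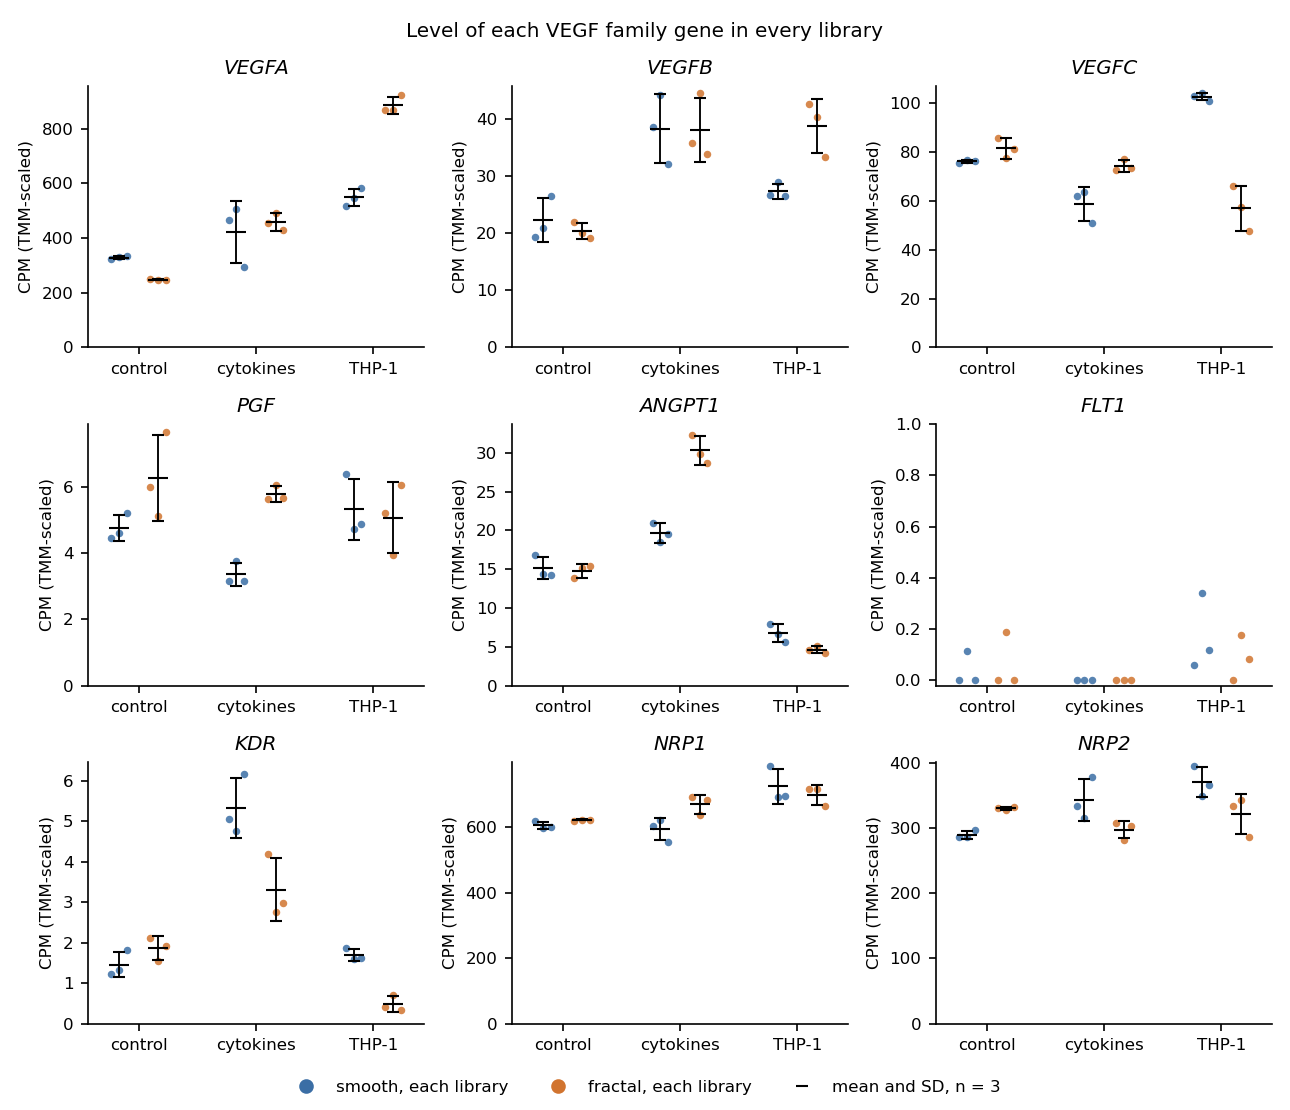
Level of each of the 9 genes in every library, in CPM scaled by TMM on linear axes from 0 (FLT1 up to 1 CPM), by condition; blue points are smooth and orange points fractal libraries, and the black bars give the mean and SD of 3 libraries (none for FLT1). VEGFA reached 867 to 922 CPM in the fractal THP-1 libraries and 246 to 252 CPM in the fractal controls, while ANGPT1 was at 4.13 to 5.14 CPM with THP-1 and 28.7 to 32.3 CPM with cytokines on fractal topography.

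Most of the members called with cytokines rose, and macrophages on the fractal surface raised some and lowered others. The counts below are members past an adjusted p of 0.05, by the quasi-likelihood test of edgeR adjusted over the 16129 genes tested (Benjamini-Hochberg). In brackets stands the share of all tested genes called in the same direction. Cytokines raised 5 of the 8 members (13.2%) and lowered 1 (12.4%) on smooth topography. On fractal topography they raised 4 (13%) and lowered none (12.9%). THP-1 raised 4 (17.3%) and lowered 1 (17.7%) on smooth topography, and on fractal it raised 2 (25%) and lowered 3 (25.5%). Macrophages against cytokines gave 4 higher (10.6%) and 3 lower (11.8%) on smooth and 1 higher (15.4%) and 3 lower (20.5%) on fractal topography. With 8 members these shares are coarse, and the comparisons share libraries with each other.

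Between the surfaces, the fit reported called members in the treated cells and not among the controls, a contrast that depended on the settings. Fractal against smooth, none of the 8 was called among the controls, where 1.77% of all genes were. There 2 members had an unadjusted p under 0.05 and 1, VEGFA, was called by DESeq2. Under cytokines 3 were higher (1.72%) and none lower (2.74%) on fractal, and with THP-1 2 were higher (8.25%) and 3 lower (11.7%). Leaving out each library in turn gave 1 to 3 members under cytokines and 4 to 6 with THP-1. The response to THP-1 differed between the surfaces for 5 members, 2 upward (5.35%) and 3 downward (7.88%). For the response to cytokines none passed, against 2.7% of all genes. There 4 members had an unadjusted p under 0.05 and 2, NRP2 and ANGPT1, were called by DESeq2. The median log2 difference of the 8 members in the THP-1 interaction was -0.43, beside 0.00 over all tested genes.

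VEGFA had its highest level with macrophages on the fractal surface. The smooth controls held 322, 329 and 334 CPM and the fractal controls 252, 247 and 246 CPM. With cytokines the values were 467, 505 and 295 CPM on smooth and 455, 492 and 428 CPM on fractal, and with THP-1 they were 517, 546 and 582 CPM on smooth and 868, 867 and 922 CPM on fractal. The THP-1 libraries of each surface lay above every control and cytokine library, and the fractal THP-1 values lay above all others. The cytokine libraries of the 2 surfaces overlapped, and smooth cytokines replicate 3 lay below the smooth controls.

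On the fractal surface THP-1 raised VEGFA 3.57-fold (log2 fold change 1.83 ± 0.13, SE, adjusted p = 3.20e-11), and on the smooth surface 1.67-fold (0.74 ± 0.12, adjusted p = 4.82e-05). The difference between these responses was 1.10 ± 0.17 on the log2 scale (95% interval 0.74 to 1.45, adjusted p = 0.000101). Of the 2 ends of this difference, the fractal THP-1 libraries were higher than the smooth ones (0.69 ± 0.12, adjusted p = 0.000226), and the fractal controls lay below the smooth controls without overlap (-0.40 ± 0.12) but did not pass (adjusted p = 0.108). That control difference passed with DESeq2 (0.0442), without the filter on low counts (0.00079) and in a fit to the 6 control libraries alone (1.37e-20). These are bulk libraries, in which fewer cells of a type and less RNA per cell cannot be told apart. With THP-1 the summed macrophage markers were lower on fractal than on smooth topography, where VEGFA was higher. Of 13 markers tested there, 4 were called lower (11.7% of all genes) and 0 higher (8.25%), and CD14 was at 6.77 CPM on fractal and 5.59 CPM on smooth. The THP-1 interaction called 0 of these markers. Their part in the VEGFA result was not tested.

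Cytokines raised VEGFA 1.85-fold on fractal topography (0.88 ± 0.12, adjusted p = 8.01e-06). On smooth topography the rise was 0.36 ± 0.12 (adjusted p = 0.0312), and its size depended on the cytokine libraries. It was 0.54 without smooth cytokines replicate 3 (adjusted p = 1.30e-05), 0.27 without replicate 1 (0.185) and 0.21 without replicate 2 (0.222) or without the libraries that stood apart (0.297). Without smooth control replicates 1, 2 or 3 the value stayed at 0.34, 0.36 and 0.37, with adjusted p = 0.0973, 0.0819 and 0.071, and a fit to the 6 libraries alone gave 0.37 (0.227). The cytokine responses of the 2 surfaces differed by 0.52 ± 0.17 (95% interval 0.17 to 0.88), which did not pass (adjusted p = 0.125). That difference passed without the filter (0.00235) and without smooth cytokines replicate 2 (0.019). THP-1 against cytokines gave 0.95 ± 0.12 on fractal topography (adjusted p = 1.64e-06) and 0.38 ± 0.12 on smooth (0.0267). The smooth value fell to 0.18 (adjusted p = 0.115) without smooth cytokines replicate 3, and it was also lost without smooth THP-1 replicates 2 (0.0639) or 3 (0.104) and in a fit to the 6 libraries alone (0.21).

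VEGFA is a target of the hypoxia-inducible factors, so 21 other targets of these factors were set beside it. They differed from VEGFA in their order across the groups. Their median log2 difference from the smooth controls was 0.43 to 0.53 in the smooth cytokine libraries and 0.54 to 0.59 in the fractal ones, the highest of the groups, whereas it was 0.08 to 0.09 with THP-1 on smooth and 0.21 to 0.36 with THP-1 on fractal topography. In brackets, here and for the lists below, stands the share of all tested genes called in that direction. Cytokines raised 14 of the 21 (13.2%) and lowered 1 (12.4%) on smooth topography, and raised 17 (13%) and lowered none (12.9%) on fractal. THP-1 raised 8 (17.3%) and lowered 6 (17.7%) on smooth, and raised 10 (25%) and lowered 5 (25.5%) on fractal topography. With THP-1, 11 of the 21 were higher (8.25%) and 1 lower (11.7%) on fractal than on smooth topography.

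Single targets moved as far as VEGFA or further. NDRG1, a stress-responsive gene, went from 35.4 ± 2.0 to 291 ± 15 CPM with THP-1 on fractal topography (3.04 ± 0.10) and from 35.2 ± 2.8 to 199 ± 7.9 CPM on smooth (2.50 ± 0.10). ADM, which encodes the vasodilator adrenomedullin, was lower in fractal than in smooth controls (27.9 ± 2.2 against 48.3 ± 2.7 CPM, -0.79 ± 0.15, adjusted p = 0.00508). It reached 136 ± 35 CPM with THP-1 on fractal and 90.3 ± 4.5 CPM on smooth topography, an interaction of 1.37 ± 0.20 (adjusted p = 6.05e-05). With THP-1 on fractal topography 10 targets were raised and 5 lowered. By adjusted p the first of those lowered were LOX (-0.96 ± 0.09) and the glycolytic genes ENO1 (-0.59 ± 0.07) and LDHA (-0.36 ± 0.07). PFKFB4, also of glycolysis, had a higher mean there with THP-1 (29.6 CPM) than in the controls (14.1 CPM).

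Among the 8 tested hypoxia sensors and HIF subunits, EPAS1, which encodes HIF-2α, rose in all 4 treatment comparisons. Its log2 fold changes were 0.71 ± 0.11 and 1.11 ± 0.11 with cytokines and 0.80 ± 0.11 and 1.37 ± 0.11 with THP-1, on smooth and fractal topography. The THP-1 response of EPAS1 differed between the surfaces by 0.57 ± 0.16 (adjusted p = 0.0158). HIF1A, which encodes HIF-1α and is regulated mainly at the protein level, fell with THP-1 on smooth (-0.71 ± 0.12) and fractal topography (-0.51 ± 0.12). By adjusted p and direction the other sensors called with THP-1 were VHL, the ubiquitin ligase subunit (0.33 ± 0.08 and 0.44 ± 0.08), and the prolyl hydroxylase EGLN2 (0.74 ± 0.26 and 1.19 ± 0.27), both higher.

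**Figure D2:**
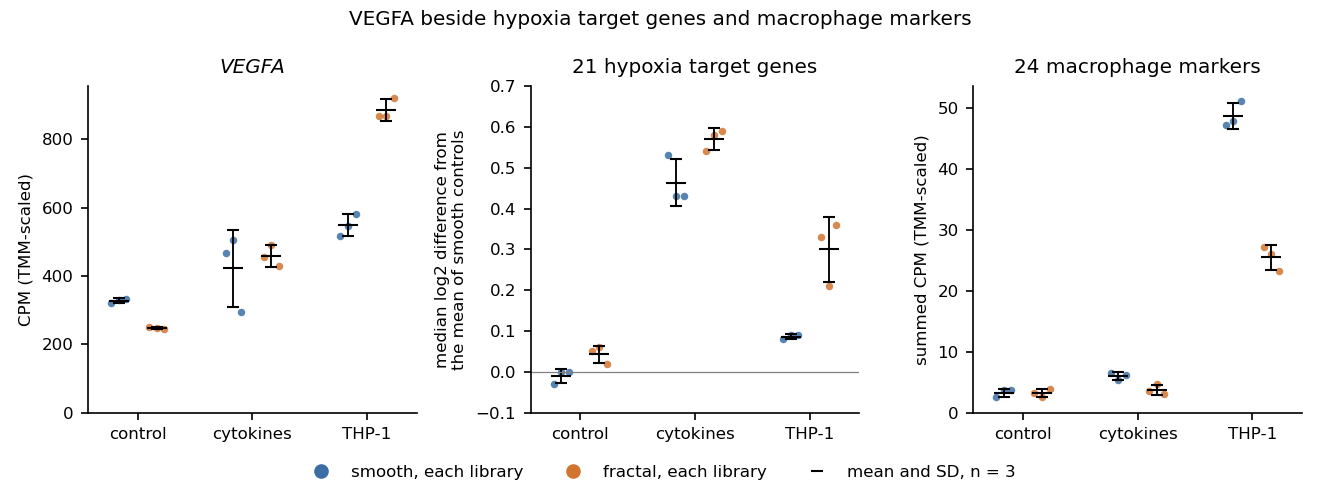
VEGFA in CPM, the median log2 difference of 21 other hypoxia target genes from the mean of the smooth controls, and the summed CPM of 24 monocyte and macrophage markers, in every library on linear axes; bars give the mean and SD of 3 libraries. VEGFA stood highest in the fractal THP-1 libraries (867 to 922 CPM), the hypoxia targets in the fractal cytokine libraries (0.54 to 0.59) and the macrophage markers in the smooth THP-1 libraries (47.2 to 51.2 CPM).

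VEGFB rose with cytokines on both surfaces and with macrophages on the fractal one. The controls held 19.3, 21.0 and 26.6 CPM on smooth and 21.9, 20.1 and 19.2 CPM on fractal. With cytokines the values were 38.6, 44.3 and 32.1 CPM on smooth and 35.8, 44.5 and 33.9 CPM on fractal. With THP-1 they were 26.7, 28.9 and 26.5 CPM on smooth and 42.6, 40.3 and 33.4 CPM on fractal. Every cytokine library and every fractal THP-1 library lay above every control, while the smooth THP-1 values overlapped the smooth controls through replicate 3 of the controls. Cytokines raised VEGFB by 0.78 ± 0.14 on smooth (adjusted p = 9.04e-05) and 0.90 ± 0.14 on fractal topography (1.69e-05), which differed by 0.11 (95% interval -0.28 to 0.51).

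With THP-1 the rise of VEGFB was 0.93 ± 0.14 on fractal topography (adjusted p = 3.38e-06). On smooth topography it was 0.30 ± 0.14 and did not pass (0.0964), although it did without smooth control replicate 3 (0.44, 0.0288) and in a fit to the 6 libraries alone (0.011). The fractal THP-1 libraries were higher than the smooth ones by 0.51 ± 0.13 (adjusted p = 0.0086). The interaction of 0.63 ± 0.19 (adjusted p = 0.0303) missed the threshold when any of smooth control replicate 3 (0.48, 0.125), fractal control replicates 2 or 3, smooth THP-1 replicates 1 or 3, or fractal THP-1 replicates 1 or 2 was left out (adjusted p from 0.053 to 0.125 over these 7 fits).

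PGF, a ligand of FLT1, was low, and neither treatment changed it beyond the threshold against control. Its counts per library ran from 52 to 132. The smooth controls held 4.47, 4.61 and 5.22 CPM and the fractal controls 6.02, 5.12 and 7.68 CPM. The smooth cytokine libraries, at 3.17, 3.76 and 3.17 CPM, lay below all other libraries of the 6 groups, and the fractal cytokine libraries held 5.65, 6.08 and 5.66 CPM. The THP-1 libraries held 6.40, 4.73 and 4.88 CPM on smooth and 5.22, 3.96 and 6.07 CPM on fractal. PGF was higher on fractal than on smooth topography under cytokines (0.78 ± 0.22, adjusted p = 0.0353) and higher with THP-1 than with cytokines on smooth topography (0.66 ± 0.22, 0.0282). The first was lost without the filter (0.0704), in a fit to the 6 libraries alone (0.0638), or without smooth cytokines replicates 1 or 3 or any of fractal cytokines replicates 1 to 3 (0.0823 to 0.143). The second was lost without the filter (0.0639), or without smooth cytokines replicates 1 (0.0819) or 3 (0.0813) or smooth THP-1 replicate 1 (0.153).

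VEGFC, the lymphangiogenic ligand, went in opposite directions with macrophages on the 2 surfaces. The controls held 75.5, 76.8 and 76.4 CPM on smooth and 85.8, 77.4 and 81.3 CPM on fractal. With THP-1 the values were 103, 104 and 101 CPM on smooth and 66.0, 57.4 and 47.5 CPM on fractal. With cytokines they were 61.8, 63.5 and 50.9 CPM on smooth and 72.6, 77.0 and 73.3 CPM on fractal. The smooth THP-1 libraries lay above, and the fractal THP-1 libraries below, every control.

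THP-1 raised VEGFC by 0.42 ± 0.10 on smooth topography (1.34-fold, adjusted p = 0.00107) and lowered it by -0.51 ± 0.10 on fractal (0.701 of the control level, adjusted p = 9.41e-05). The difference of the responses was -0.94 ± 0.14 (95% interval -1.22 to -0.66, adjusted p = 2.59e-05), and fractal against smooth with THP-1 it was -0.84 ± 0.10 (4.84e-07). Cytokines lowered VEGFC on smooth topography (-0.38 ± 0.10, adjusted p = 0.00474), whereas the fractal value was -0.13 ± 0.10 (0.348). That pair of responses was not shown to differ (0.24, 95% interval -0.04 to 0.53, adjusted p = 0.473). VEGFC was higher on fractal than smooth under cytokines (0.34 ± 0.10, adjusted p = 0.0428), a call lost without smooth cytokines replicates 1 (0.0721) or 3 (0.24, 0.317) or any of fractal cytokines replicates 1 to 3 (0.106 to 0.18). THP-1 against cytokines gave 0.80 ± 0.10 on smooth topography (adjusted p = 5.19e-07) and -0.38 ± 0.10 on fractal (0.00341), the latter lost in a fit to the 6 libraries alone (0.0848).

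VEGFC is made as a precursor that proprotein convertases such as FURIN cut inside the cell, after which ADAMTS3, with its cofactor CCBE1, makes the active form outside it. With THP-1 the protease gene and the cofactor gene moved apart. CCBE1 fell from 47.9 ± 0.96 to 10.2 ± 0.96 CPM on smooth topography (-2.23 ± 0.14, adjusted p = 5.27e-12) and from 63.7 ± 0.13 to 3.49 ± 0.91 CPM on fractal (-4.22 ± 0.16, 1.68e-16), an interaction of -1.99 ± 0.21 (3.24e-07). ADAMTS3 stood at 17.7 ± 2.0 and 51.5 ± 8.0 CPM without and with THP-1 on smooth topography (1.54 ± 0.12, 3.69e-10), and at 20.5 ± 1.1 and 48.0 ± 2.1 CPM on fractal. FURIN was higher in fractal than in smooth controls (270 ± 4.9 against 204 ± 9.4 CPM, 0.41 ± 0.08, adjusted p = 0.00624), and its THP-1 response was lower on fractal by -0.72 ± 0.12. Cytokines lowered CCBE1 as well, by -0.82 ± 0.13 on smooth and -1.50 ± 0.13 on fractal topography.

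**Figure D3:**
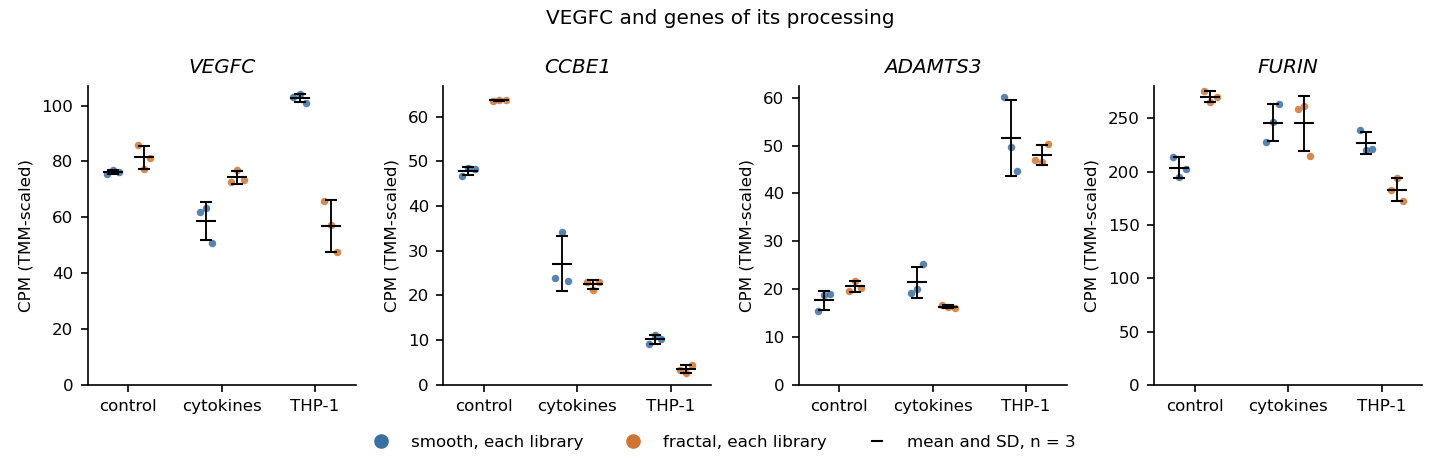
VEGFC and 3 genes of its processing (CCBE1, ADAMTS3 and FURIN) in every library, in CPM on linear axes from 0, with the mean and SD of 3 libraries. With THP-1, VEGFC stood at 101 to 104 CPM on smooth and 47.5 to 66.0 CPM on fractal topography, while CCBE1 was at 10.2 and 3.49 CPM and ADAMTS3 at 51.5 and 48.0 CPM on average.

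These genes come from a list of 15 for binding, release and processing of VEGF ligands. On fractal topography THP-1 raised 7 (25% of all genes) and lowered 6 (25.5%) of them, and on smooth topography it raised 4 (17.3%) and lowered 4 (17.7%). MMP2, a gelatinase, rose with THP-1 from 566 ± 16 to 1570 ± 47 CPM on fractal (1.47 ± 0.08) and from 658 ± 5.8 to 1042 ± 38 CPM on smooth topography (0.66 ± 0.08). ADAMTS1, a protease that binds VEGFA, fell from 659 ± 8.2 to 167 ± 22 CPM on fractal and from 555 ± 8.3 to 272 ± 20 CPM on smooth topography, and CCN2, which also binds VEGFA, fell by -1.28 ± 0.08 and -0.80 ± 0.08. SULF1, a sulfatase that trims heparan sulfate, went from 0.301 ± 0.17 to 22.8 ± 2.9 CPM with cytokines on fractal topography and from 0.916 ± 0.045 to 8.91 ± 1.8 CPM on smooth, an interaction of 2.92 ± 0.46 (adjusted p = 0.000323). MMP9, a protease that macrophages also make, was at 0 in every smooth control and reached 4.26 ± 0.68 CPM in the smooth THP-1 libraries, where the macrophage markers were highest. The part of those cells in it was not tested.

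KDR, the main signalling receptor of VEGFA, was the least abundant member that could be tested, and cytokines raised it while macrophages on the fractal surface lowered it. The smooth controls held 1.23, 1.32 and 1.81 CPM (21, 23 and 25 counts) and the fractal controls 2.12, 1.55 and 1.92 CPM. With cytokines KDR stood at 5.06, 4.77 and 6.17 CPM on smooth and 4.19, 2.76 and 2.99 CPM on fractal. With THP-1 it stood at 1.86, 1.60 and 1.63 CPM on smooth and 0.411, 0.709 and 0.337 CPM on fractal, the latter from 7, 12 and 4 counts. All cytokine libraries lay above all controls, the fractal THP-1 libraries lay below every other library, and the smooth THP-1 libraries overlapped the smooth controls.

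Cytokines raised KDR 3.68-fold on smooth topography (1.88 ± 0.29, adjusted p = 2.36e-05) and 1.78-fold on fractal (0.83 ± 0.29, 0.0347). The fractal call was lost without the filter (0.151), without any of fractal control replicates 1 (0.0559), 2 (0.153) or 3 (0.0864), and without fractal cytokines replicates 1 (0.212) or 3 (0.06). The 2 responses differed by -1.05 ± 0.41, which did not pass (adjusted p = 0.223). THP-1 took KDR to 0.271 of the control level on fractal topography (-1.89 ± 0.36, adjusted p = 9.00e-05), and on smooth topography the value was 0.23 ± 0.31 (95% interval -0.41 to 0.87, 0.619). The interaction was -2.11 ± 0.47 (95% interval -3.09 to -1.13, adjusted p = 0.00326). Fractal against smooth with THP-1 it was -1.75 ± 0.36 (0.000922), just missing the threshold in a fit to those 6 libraries alone (0.0512). The summed endothelial markers were 220 ± 4.3 CPM in smooth and 189 ± 20 CPM in fractal THP-1 libraries, and 170 ± 16 and 155 ± 5.5 CPM with cytokines. SOX17, EHD3 and ENG held most of these sums.

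Of the 17 endothelial markers 12 were tested. With THP-1, 1 was higher (8.25% of all genes) and 3 were lower (11.7%) on fractal than on smooth topography (median log2 difference -0.62). Against control, THP-1 raised 7 (17.3%) and lowered 0 (17.7%) on smooth topography, and raised 3 (25%) and lowered 1 (25.5%) on fractal. Cytokines raised 1 (13.2%) and lowered 3 (12.4%) on smooth topography, and raised 1 (13%) and lowered 2 (12.9%) on fractal. From this list CDH5 and PECAM1, picked after their values were seen, are set beside KDR. CDH5, which encodes VE-cadherin, stood at 8.55 ± 1.1 CPM in smooth controls and 2.55 ± 0.93 CPM with cytokines on that surface, where KDR was highest. With THP-1 CDH5 was at 16.6 ± 1.1 CPM on smooth and 5.94 ± 1.9 CPM on fractal (-1.47 ± 0.24). PECAM1, an adhesion molecule of endothelium and leukocytes, stood at 0.325 ± 0.099 CPM in smooth controls and 2.85 ± 1.3 CPM in smooth cytokine libraries, and at 4.55 ± 0.65 CPM on smooth and 10.5 ± 1.3 CPM on fractal with THP-1 (1.21 ± 0.30). The part of other cells in the KDR result was not tested.

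FLT1, the other VEGFA receptor and the one for PGF and VEGFB, was at the limit of detection. It had 19 counts in all, spread over 7 of the 18 libraries: 2 in the smooth controls, 4 in the fractal controls, 9 in the smooth THP-1 group and 4 in the fractal THP-1 group. The single library with most held 6 counts (smooth THP-1 replicate 2, 0.342 CPM). Neither cytokine group had a count, which allows a level of up to 0.0563 CPM on smooth and 0.0623 CPM on fractal (3 counts over the group, counting error only). FLT1 failed the filter on low counts, so no difference between groups was tested. FLT4, the receptor of VEGFC, was as low, with at most 12 counts in a group.

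NRP1, which presents VEGFA to KDR and is also a semaphorin receptor, had group means between 595 and 726 CPM. The smooth controls held 619, 599 and 602 CPM, the fractal controls 621, 623 and 624 CPM, and the cytokine libraries 605, 623 and 556 CPM on smooth and 692, 638 and 684 CPM on fractal. With THP-1 the values were 788, 694 and 696 CPM on smooth and 717, 717 and 665 CPM on fractal. On each surface all THP-1 libraries lay above all controls. The rise was 0.26 ± 0.07 on smooth (1.2-fold, adjusted p = 0.00726), lost without smooth THP-1 replicate 1 (0.19, 0.0676). On fractal topography it was 0.17 ± 0.07 and did not pass (0.0585), but it passed with DESeq2 (0.00805), with RLE factors (0.0326) and without fractal THP-1 replicate 3 (0.01). Under cytokines the log2 fold changes were -0.03 (95% interval -0.18 to 0.12) and 0.11 (-0.04 to 0.26).

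NRP2, the co-receptor of VEGFC, rose with both treatments on the smooth surface. The smooth controls, at 286, 286 and 296 CPM, and the fractal controls, at 330, 327 and 332 CPM, did not overlap, but their difference of 0.19 ± 0.08 did not pass (adjusted p = 0.323). It did in a fit to the 6 control libraries alone (1.21e-06) and without the libraries that stood apart (0.0267). With cytokines NRP2 stood at 334, 315 and 378 CPM on smooth and 307, 282 and 302 CPM on fractal, and with THP-1 at 395, 349 and 366 CPM on smooth and 334, 343 and 286 CPM on fractal. The smooth treated libraries all lay above the smooth controls. THP-1 raised NRP2 by 0.36 ± 0.08 on smooth topography (adjusted p = 0.0012), the fractal value was -0.04 ± 0.08 (95% interval -0.21 to 0.13), and the interaction was -0.39 ± 0.11 (0.0223). The interaction was lost without smooth control replicates 1 (0.0501) or 2 (0.0541) or smooth THP-1 replicate 1 (0.0687).

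The rise of NRP2 with cytokines on smooth topography was 0.24 ± 0.08 (adjusted p = 0.0276), and the fractal value was -0.15 ± 0.08 (0.185). The fractal value passed as a fall in a fit to the 6 libraries alone (0.0213) and without the libraries that stood apart (0.0271). The rise was lost without the filter (0.0508), without any of smooth control replicates 1 to 3 (0.0606 to 0.0951) and without smooth cytokines replicates 1 (0.0563) or 3 (0.14, 0.25). The interaction with cytokines was also -0.39 ± 0.11 but had an adjusted p of 0.0646. It passed with DESeq2 (0.0153), without the filter (0.0308), in a fit to the control and cytokine libraries alone (0.00605), without smooth cytokines replicate 2 (0.0252) and without both libraries that stood apart (-0.45, 0.000121).

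Neuropilins also carry the signals of class 3 semaphorins through plexins, and 11 of 12 listed partner genes were tested. THP-1 raised 3 (17.3% of all genes) and lowered 4 (17.7%) of them on smooth topography, and raised 2 (25%) and lowered 5 (25.5%) on fractal. PLXNA2, a plexin that pairs with neuropilins, fell from 47.1 ± 2.2 to 9.71 ± 3.1 CPM with THP-1 on fractal (-2.30 ± 0.15, adjusted p = 7.40e-12) and from 37.8 ± 0.95 to 20.3 ± 1.3 CPM on smooth topography (-0.90 ± 0.14), an interaction of -1.41 ± 0.21 (3.74e-05). SEMA3D fell with THP-1 on both surfaces, by -1.54 ± 0.14 and -1.67 ± 0.14. With cytokines PLXNA4 rose on both surfaces (0.87 ± 0.14 and 1.45 ± 0.14), and SEMA3A, which competes with VEGFA for NRP1, fell on both (-0.39 ± 0.11 and -0.71 ± 0.11). SEMA3F, a ligand of NRP2, rose with cytokines on smooth topography by 0.82 ± 0.08, and its response differed between the surfaces by -0.73 ± 0.12 (adjusted p = 0.000389).

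ANGPT1 answered the 2 treatments in opposite directions on both surfaces. The smooth controls held 16.8, 14.4 and 14.2 CPM and the fractal controls 13.8, 15.1 and 15.4 CPM. With cytokines it stood at 21.0, 18.5 and 19.5 CPM on smooth and 32.3, 29.9 and 28.7 CPM on fractal. With THP-1 it stood at 7.91, 6.67 and 5.66 CPM on smooth and 4.64, 5.14 and 4.13 CPM on fractal. Its gene lies at 107249482 to 107498055 on the minus strand of chromosome 8. The control libraries of the 2 surfaces overlapped, and no treated group overlapped the controls or another treated group.

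Cytokines raised ANGPT1 2.05-fold on fractal topography (1.03 ± 0.13, adjusted p = 1.05e-06) and 1.3-fold on smooth (0.37 ± 0.13, 0.0354). The smooth call was lost without the filter (0.122), without smooth control replicates 2 (0.134) or 3 (0.138) and without smooth cytokines replicates 1 (0.147) or 3 (0.0899). THP-1 took it to 0.316 of the control level on fractal (-1.66 ± 0.15, adjusted p = 8.32e-10) and 0.446 on smooth topography (-1.17 ± 0.14, 3.64e-07). Between the treatments the difference was -2.70 ± 0.15 on fractal (2.73e-13) and -1.54 ± 0.14 on smooth topography (4.14e-09). Fractal libraries were higher than smooth ones under cytokines (0.63 ± 0.13, adjusted p = 0.00245) and lower with THP-1 (-0.53 ± 0.15, 0.0152). The latter was lost without smooth THP-1 replicate 1 (-0.41, 0.106) and in a fit to the 6 libraries alone (0.177).

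Neither interaction passed for ANGPT1. It was 0.66 ± 0.18 with cytokines (adjusted p = 0.051) and -0.50 ± 0.20 with THP-1 (0.111). The former passed with DESeq2 (0.0158), in a fit to the control and cytokine libraries alone (0.00724) and without the libraries that stood apart (0.0188). Of 6 other ligands and receptors of these families, ANGPT2 and TIE1 were tested. TIE1, the orphan partner of TEK, fell with cytokines on smooth (2.68 ± 0.13 to 0.849 ± 0.46 CPM, -1.66 ± 0.40, adjusted p = 0.00266) and fractal topography (2.12 ± 0.40 to 0.940 ± 0.17 CPM, -1.17 ± 0.40, 0.0311). TEK itself, the receptor of ANGPT1, had at most 29 counts in a group, and ANGPT2, its context-dependent antagonist, passed in none of the 11 comparisons.

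**Figure D4:**
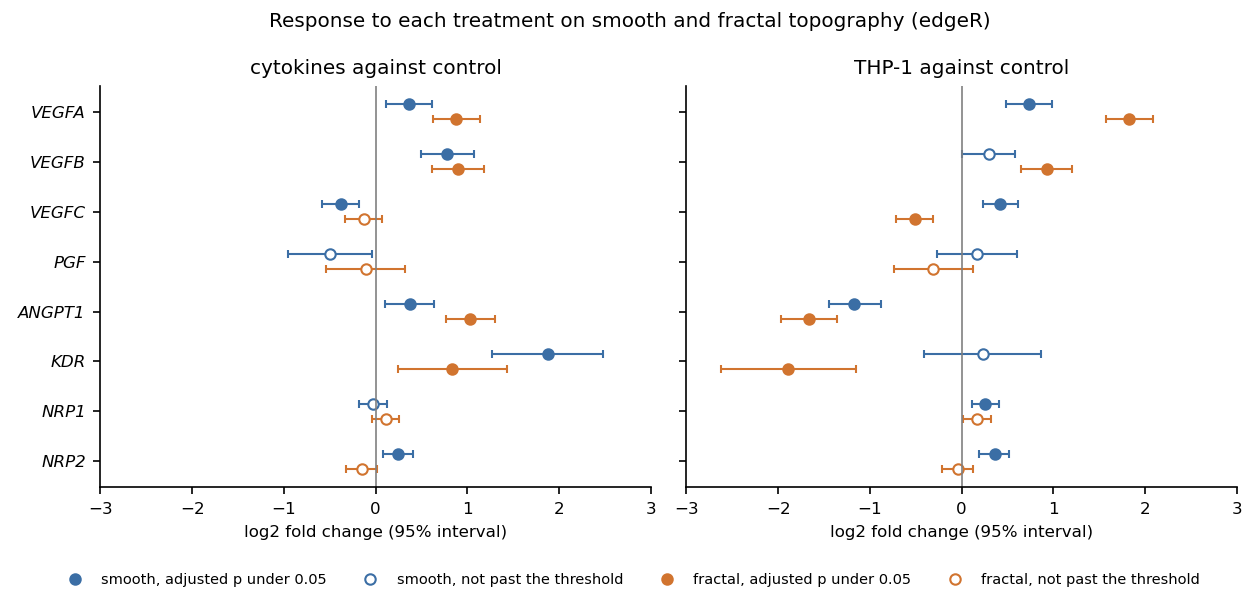
Log2 fold change of each tested member against control with cytokines (left) and with THP-1 (right), on smooth (blue) and fractal (orange) topography, with 95% intervals; filled points passed an adjusted p of 0.05 in edgeR's test and open points did not. With THP-1 the smooth and fractal points of VEGFC lie on opposite sides of 0 (0.42 and -0.51), VEGFA lies at 0.74 and 1.83, and ANGPT1 lies right of 0 with cytokines and left of 0 with THP-1.

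Genes whose log2 CPM followed a member most closely over the 18 libraries were sought among 10244 protein-coding genes, as a description in which all points share the same libraries and the 6 groups. Nearest to VEGFA were the neuronal enolase gene ENO2 (Pearson r = 0.970), the splicing factor gene SRSF5 (0.958) and TMEM80 (0.954). ANGPT1 was followed most closely by FAH, of tyrosine breakdown (0.974), the glycolytic gene PGK1 (0.974) and the transcription factor gene RUNX1 (0.968). VEGFB had CEBPD, an inflammatory transcription factor gene (0.940), ZNF160 (0.929) and the complement protease gene C1R (0.926). VEGFC had SIGLEC15 (0.911), SMAP2 (0.899) and IRAK4, a kinase of interleukin 1 signalling (0.863). KDR had MPDU1, IL6ST, the signalling subunit of the IL-6 receptor, and GABBR2, each at 0.919.

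For NRP1 the nearest genes were CACNG7 (0.881), CORO2B (0.848) and CHI3L1 (0.835), for NRP2 ABR (0.856), USB1 (0.835) and SAMHD1 (0.827), and for PGF CARNMT1 (0.788), TBC1D2 (0.787) and EEF1A2 (0.774).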

How the data were processed

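RNA from 18 libraries of PODO/TERT256 cells was selected by poly-T and sequenced without strand as read pairs, per the labels. The deposited table holds the authors' raw counts for 58735 genes. The submitters' processing notes list the build GRCh38 (hg38) and the tools featureCounts 1.5.0-p3, HISAT2 2.0.5 and CASAVA. The annotation is not given in the sources used here, and all 58735 identifiers matched GENCODE 29.

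Counts were tested with edgeR 4.0.16 in R 4.3.3 (TMM scaling, filterByExpr with min.count 10 and min.total.count 15, robust quasi-likelihood F-tests). A single model held a mean for each of the 6 groups (biological coefficient of variation 12.2%, 12 residual degrees of freedom). Each of 11 comparisons was adjusted by the Benjamini-Hochberg method over the 16129 genes tested, at a threshold of 0.05. Levels are CPM on the TMM scale. Alternatives were DESeq2 1.42.0, RLE factors, no filter, a fit to only the groups compared, a replicate block, leaving out each library, and leaving out both libraries that stood apart, which was chosen after seeing the data. The tests were tried on simulated counts.

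Members and lists were chosen with earlier results of these data known. All members are named, from each list up to 3 genes per comparison and direction by adjusted p, and for each tested member the 3 genes most correlated with it among those with a mean of at least 5 CPM. CDH5, PECAM1, SOX17, EHD3, FLT4, TEK, SULF1, FURIN, ADAMTS3 and EPAS1 are also given, chosen after their values were seen, where that rule does not name them.

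Motifs were searched in the 250 bases before each RefSeq start. The promoters of VEGFA, NRP1 and ANGPT1 were not used here.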

Additional observations from a re-analysis of the deposited data

Results flagged for a closer look

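For 5 members the response to THP-1 macrophages differed between fractal and smooth topography by edgeR's quasi-likelihood test of the difference itself. VEGFA rose further on fractal topography, by 1.10 on the log2 scale (adjusted p = 0.000101), and VEGFB by 0.63 (0.0303). VEGFC differed by -0.94 (2.59e-05), and it is the member whose called response had opposite signs on the surfaces. KDR differed by -2.11 (0.00326), resting on 7, 12 and 4 counts in the fractal THP-1 libraries. NRP2 differed by -0.39 (0.0223). The differences of VEGFA, VEGFC and KDR passed under every alternative run, while those of VEGFB and NRP2 were lost in some of the fits that left out a library.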

How the results depend on the processing

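The counts of members called moved with the settings in several comparisons, with few or many members called. Fractal against smooth in controls, 0 members were called in the fit reported, 1 with DESeq2, 1 without the filter, 2 in a fit to only the groups compared and 1 without the libraries that stood apart. For the interaction with cytokines 0 became 2 under each of these 4 settings. Fractal against smooth under cytokines, 3 became 5 without the libraries that stood apart, and with THP-1 5 became 3 in a fit to only the groups compared. Leaving out each library in turn gave 0 to 0 members for the controls, 1 to 3 for fractal against smooth under cytokines, 4 to 6 for it with THP-1, 3 to 5 and 3 to 4 for cytokines on smooth and fractal topography, and 4 to 6 and 5 to 6 for THP-1. It gave 5 to 6 and 4 to 5 for THP-1 against cytokines, 0 to 2 for the interaction with cytokines and 3 to 5 for that with THP-1. For cytokines on smooth topography the fit reported called 5 higher and 1 lower, a count that no fit leaving out a library reached. It fell to 2 higher and 1 lower without smooth control replicates 2 or 3 or smooth cytokines replicate 1. No called value changed its sign under any alternative run. RLE factors changed 1 of the 88 member tests and DESeq2 4. With the replicate number as a block all 88 member tests kept their call, and fractal against smooth with THP-1 still gave 5 members. Libraries with the same number did not deviate together (r from -0.067 to 0.064 over 45 pairs), so the numbers were not taken to pair them.

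Over all genes, the count for fractal against smooth controls was 286 in the fit reported, 491 with DESeq2, 2755 in a fit to only the groups compared, 1188 without the libraries that stood apart and 131 to 150 leaving out a control. The interaction with cytokines gave 436, against 671, 983, 1461 and 271 to 532. Without the libraries that stood apart, fractal against smooth under cytokines gave 1561 rather than 719 and the interaction with THP-1 3642 rather than 2134 (3266 without fractal THP-1 replicate 3). Fitting only the groups compared, fractal against smooth with THP-1 gave 1412 rather than 3220 and THP-1 against cytokines on fractal 3316 rather than 5795. The cause was not tested. Depth limits FLT1 and, in the fractal THP-1 libraries, KDR.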
